A study of Mus musculus with 12 samples.

Results

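The genes described here encode core parts of the spliceosome and were taken by symbol from both deposited count tables: the Snrp and Snrnp families, the SF3a and SF3b subunits, the Prpf and Lsm families, the U2af genes, Sf1, and the helicase genes Ddx23, Ddx46, Dhx8, Dhx15, Dhx16 and Dhx38, without pseudogenes. They filled 66 of the 49585 rows of the table of sorted cells and 64 of the 21823 rows of the table of cultured cells. Those rows carry 65 symbols, 64 of them in both tables. RNA was sequenced from 12 mouse Sertoli cell samples in 4 groups of 3. The sorted cells were AmhCre; Ptbp1 flox/wt; mTmG;wt (control) and AmhCre; Ptbp1 flox/flox; mTmG;wt (conditional knockout, cKO), so both groups carried the Cre driven by the Sertoli cell gene Amh, and the controls already had 1 floxed Ptbp1 allele. The cultured cells were WT Sertoli cells grown as primary cultures, which gave input RNA and RNA recovered by PTBP1 immunoprecipitation. The labels give no age, no immunoprecipitation with a control antibody and no statement that the samples of a group were separate animals or cultures. The p-values therefore reflect sample-to-sample variation that could be wholly technical.

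The spliceosome removes introns from pre-mRNA. U1 marks the 5′ splice site, SF1 and the U2AF pair mark the branch point, the polypyrimidine tract and the 3′ splice site, U2 with SF3a and SF3b takes over the branch point, and the U4/U6·U5 tri-snRNP is remodelled by helicases into the active enzyme. Each of these particles is built on an RNA wrapped by a ring of Sm or LSm proteins. PTBP1 is an RNA-binding protein that recognises pyrimidine-rich sequence, often close to the tract that U2AF reads, and can keep exons out of mRNA. The rule on symbols also took in LSm proteins with other known work: Lsm1 belongs to the cytoplasmic ring of mRNA decay, Lsm10 and Lsm11 to the U7 particle that processes histone mRNA, and Lsm12, Lsm14a and Lsm14b to translation control and cytoplasmic granules. "Core spliceosome" is therefore too narrow for these members. Snrpert, listed at 0 in all 6 sorted libraries, was not tested.

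Ptbp1 mRNA stood at 249, 251 and 241 CPM in the controls and at 7.71, 7.99 and 7.64 CPM in the cKO, and the groups lay far apart. CPM are edgeR's scaled counts, each count set relative to the TMM-adjusted size of its library. In the sorted libraries total counts ran from 11980474 to 13750181, in the inputs from 12894035 to 15315115 and in the immunoprecipitates from 26725003 to 28796396. Along the second principal component of the sorted libraries the last library of each group, numbered 3 here, lay away from the remaining 4. Summed Sertoli cell markers (15 genes) were at 21160 to 22171 CPM in the controls and 15685 to 17064 CPM in the cKO, where 1 was called higher and 10 lower. Clu made up most of these sums, with an average of 13432 CPM in the controls and 9663 CPM in the cKO. With the test described below, 17.6% of all genes tested were called higher in the cKO and 21.4% lower. Summed spermatocyte markers (12 genes, 9 called higher) were at 287, 303 and 438 CPM in the controls and 556, 591 and 560 CPM in the cKO. Summed spermatogonial markers ranged from 338 to 400 CPM in the controls and from 328 to 412 CPM in the cKO, and of 9 genes 3 were called higher and 1 lower. Most of that sum was Uchl1, the gene called lower (on average 292 CPM in the controls and 224 CPM in the cKO). The genes called higher were Dazl (12.2 and 31.9 CPM), Ddx4 (34.5 and 56.8 CPM) and Tex101 (22.2 and 30.5 CPM). For Leydig and peritubular myoid cells the ranges were 85.1 to 93.5 and 81.2 to 121 CPM (2 of 6 tested called higher), for blood and endothelium 36.8 to 65.7 and 24.0 to 58.0 CPM (1 of 6 called lower), and for spermatids, with 1 of 7 markers at 0, 9.86 to 14.7 and 13.4 to 17.1 CPM (0 of 3 called). In the cultured libraries the Sertoli list summed to 11885 to 13251 CPM in the inputs and 10081 to 11239 CPM in the immunoprecipitates, and the Leydig and peritubular myoid list to 2246 to 2275 CPM and 1005 to 1147 CPM, with Acta2 at 1163 CPM on average in the inputs. The other 4 lists summed to at most 100 CPM in every cultured library. The part of these markers in the results below was not tested. In such bulk samples fewer cells of a type and less RNA per cell cannot be told apart.

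Loss of Ptbp1 went with a split among the spliceosome genes. Of 65 tested rows, 20 were higher in the cKO, 12 were lower and 33 were not called (quasi-likelihood test of edgeR at a threshold of 0.05, p-values adjusted by Benjamini-Hochberg over the 13405 genes in the fit). Over all genes tested 39.0% were called, 17.6% higher and 21.4% lower. The corresponding shares of the members were 49.2%, 30.8% and 18.5%. Their median log2 fold was 0.024, against 0.0021 for all genes, and their folds ran from -0.96 to 1.20 on the log2 scale. Summed over members, the level was 5907, 5750 and 5465 CPM in the controls and 5905, 5635 and 5759 CPM in the cKO, and these groups overlapped. With library size alone in place of TMM scaling the sums were 5502, 5404 and 5209 CPM against 6131, 6005 and 6190 CPM, so that every cKO library lay above every control, and the direction of the total rests on the scaling. The 3 control and 3 cKO values of a gene did not overlap for 23 members with the cKO above and 17 with the cKO below, or 61.5% of members, against 49.7% of all genes. Of the called members, 3 were at least 2-fold higher (Lsm8, Lsm5 and Snrpb2) and 0 at least 2-fold lower, where all genes gave 4.10% and 2.31%.

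**Figure D1:**
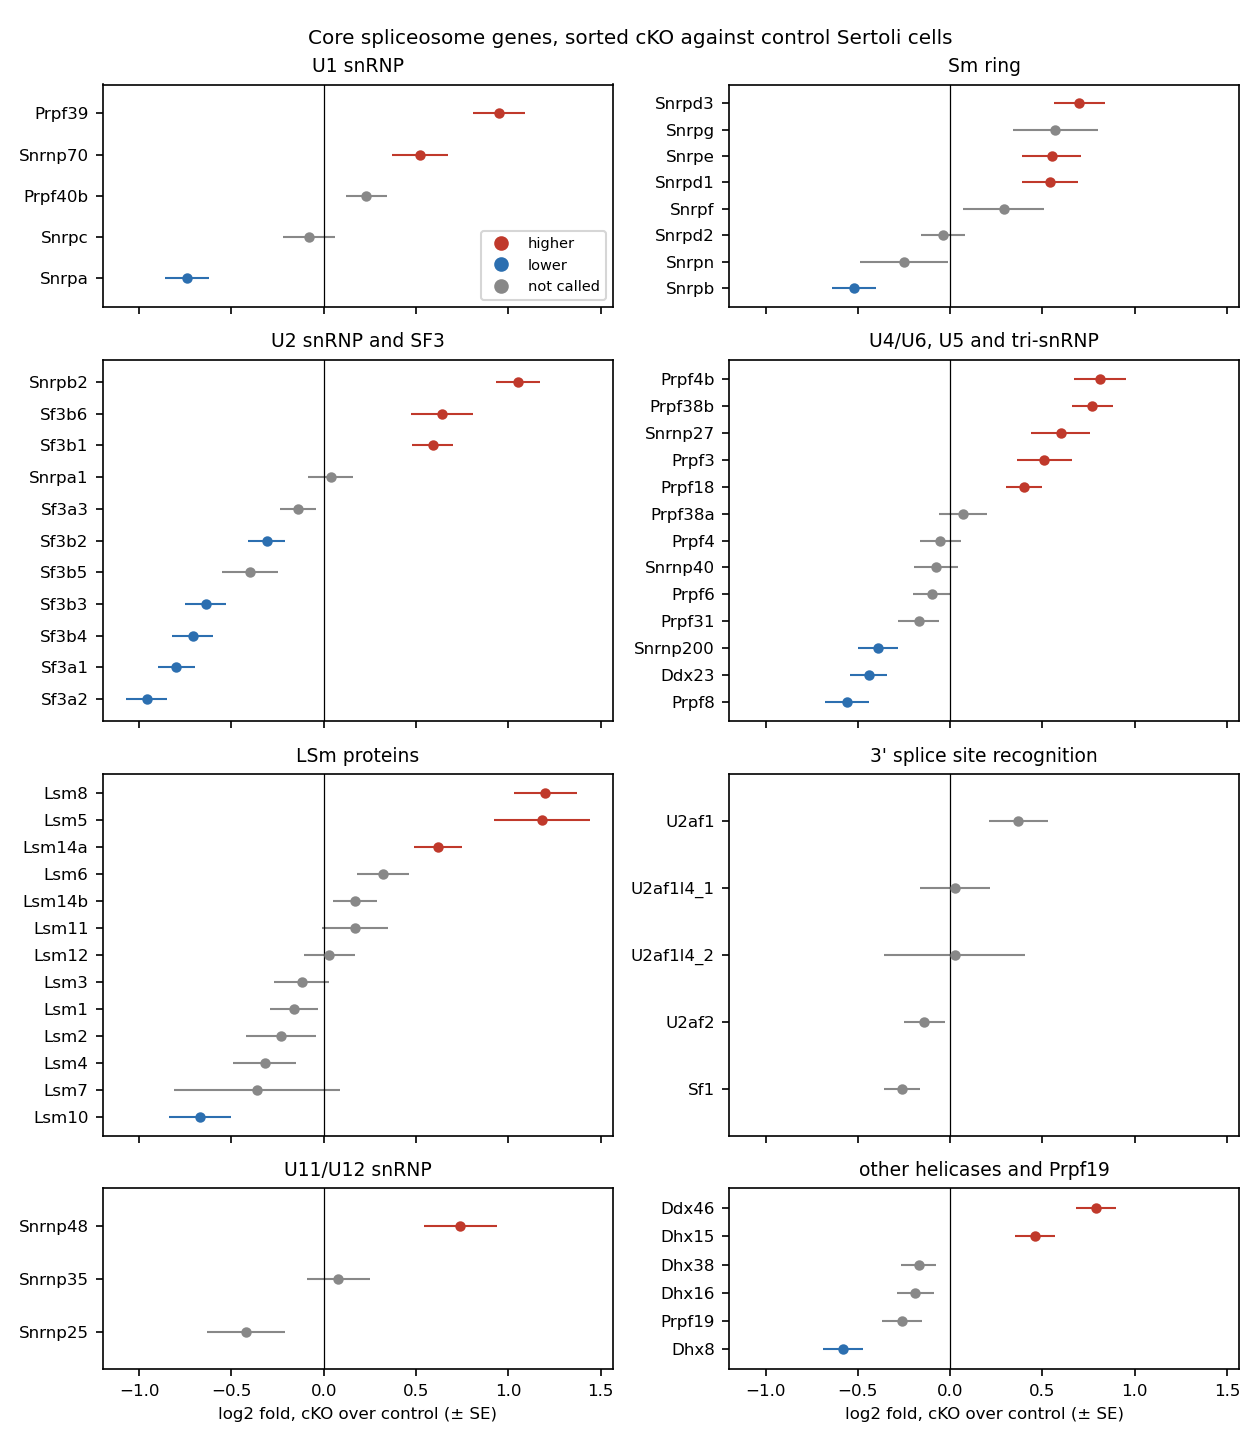
Log2 fold of the tested members (1 not shown), cKO over control, by particle, with bars for the standard error, red for higher, blue for lower and grey for not called. Members of the same particle lie on both sides of 0, from Sf3a2 at -0.96 to Lsm8 at 1.20.

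U2 and its SF3 proteins held members called in opposite directions: 3 of 11 were higher and 5 lower, with a median log2 fold of -0.31. In mm10, the build of the deposited files, Sf3a2 lies on chromosome 10 from 80798198 to 80804924, Sf3a1 on chromosome 11 from 4160350 to 4182541, Snrpb2 on chromosome 2 from 143063039 to 143072853 and Sf3b6 on chromosome 12 from 4817608 to 4827658. The promoter table holds all of these, and they are shown because Sf3a2 and Sf3a1 fell most and Snrpb2 and Sf3b6 rose most among the U2 genes it covers. Each line gives the 200 bases before the RefSeq gene start (GRCm38.p6), 5′ to 3′ on the gene's strand, with CCGGAAG, the core recognised by ETS-family factors, or its reverse complement in capitals. For 3 of the genes the RefSeq start differs from that of the deposited table, so that the Sf3a2 window lies inside, and the end of the Snrpb2 and Sf3a1 windows just inside, the gene span given above.
Sf3a1, chr11:4160154-4160353, plus strand: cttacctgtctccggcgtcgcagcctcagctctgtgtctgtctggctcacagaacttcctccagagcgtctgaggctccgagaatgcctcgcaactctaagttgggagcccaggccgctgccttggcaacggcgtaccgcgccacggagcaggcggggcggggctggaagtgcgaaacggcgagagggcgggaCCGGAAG
Sf3a2, chr10:80798535-80798734, plus strand: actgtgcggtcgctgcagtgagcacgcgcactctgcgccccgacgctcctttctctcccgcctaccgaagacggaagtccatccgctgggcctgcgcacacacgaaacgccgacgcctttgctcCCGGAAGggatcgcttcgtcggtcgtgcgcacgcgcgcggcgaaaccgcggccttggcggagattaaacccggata
Snrpb2, chr2:143062869-143063068, plus strand: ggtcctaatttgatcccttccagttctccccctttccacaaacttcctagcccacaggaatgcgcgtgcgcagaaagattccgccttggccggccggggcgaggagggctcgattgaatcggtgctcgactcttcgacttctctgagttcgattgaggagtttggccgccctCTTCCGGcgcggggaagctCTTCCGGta
Sf3b6, chr12:4817408-4817607, plus strand: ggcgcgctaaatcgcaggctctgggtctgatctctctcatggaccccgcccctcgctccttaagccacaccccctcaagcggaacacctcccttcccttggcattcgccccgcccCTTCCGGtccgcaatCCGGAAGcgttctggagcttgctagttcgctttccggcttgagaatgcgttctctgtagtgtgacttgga
Both genes shown that fell hold 1 match and both shown that rose hold 2, and none of the 4 windows holds CCAAT on either strand. These genes were picked by their folds, and the number of matches is given for no other member. Sf3b1, the other U2 gene called higher, holds no match in the longer window described below. Among all members with a promoter, CCGGAAG was found more often in lower ones (6 of 9) than in higher ones (6 of 17).

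Of the 65 symbols, 51 had a promoter in that RefSeq table, each a window of 300 bases from 250 before to 50 after the start. CCGGAAG on either strand was in 18 of the 51 (35.3%), and in 9.12% of all 27025 promoters in the table. Among members higher in the cKO it was in 6 of 17 (35.3%), among lower ones in 6 of 9 (66.7%) and among those not called in 6 of 25 (24.0%). The GC box GGGCGG was in 68.6% of member promoters and 35.9% of all, CCAAT in 43.1% and 37.9%, and TATAAA in 5.88% and 14.2%, and none of these motifs lies within another. Median GC content was 58.0% in the members and 52.7% over all promoters. These shares are a description of the windows, and the part of base composition in them was not tested. The set of all promoters was not limited to genes tested in these cells, and the part of that difference was not tested either.

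SF3a joins U2 before the branch point is engaged. Sf3a2, a zinc-finger subunit, was at 86.1, 103 and 84.5 CPM in the controls and 47.8, 46.5 and 46.1 CPM in the cKO, a log2 fold of -0.96 ± 0.11 (SE; adjusted p = 0.000138). Sf3a1, the subunit that contacts SF1, was at 213, 220 and 193 CPM against 120, 126 and 112 CPM, -0.80 ± 0.10 (adjusted p = 0.000216). In both genes every cKO library lay well below every control. Sf3a3, the third subunit, was not called (-0.14, adjusted p = 0.280), although its 3 cKO values also lay below its controls.

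SF3b holds the branch helix, and its subunits went apart. Sf3b4, an RNA-binding subunit close to the branch point, fell from 71.4, 64.5 and 67.5 CPM to 40.9, 39.6 and 43.5 CPM (-0.71 ± 0.11, adjusted p = 0.000439). Sf3b3, a large scaffold, fell by 0.64 on the log2 scale (adjusted p = 0.00123) and Sf3b2, the partner of Sf3b4, by 0.31 (adjusted p = 0.0298). The Sf3b2 call was the least stable of them: its adjusted p was above 0.05 under 8 other settings, among them leaving out any control library (0.0645 to 0.0836). Sf3b1, the subunit that closes around the branch helix, rose by 0.59 ± 0.11 (adjusted p = 0.00127), and Sf3b6, a small subunit, by 0.64 ± 0.17 (adjusted p = 0.0108). Per kilobase of exon, Sf3b1 was at 31.0 ± 1.59 CPM in the controls and 46.6 ± 3.78 CPM in the cKO (SD, n = 3), while Sf3b3 went from 39.3 ± 2.2 to 25.2 ± 2.95 CPM. By this measure the order of the 2 genes was turned between the groups. In CPM not divided by exon length Sf3b1 was above Sf3b3 in both groups. The means were 266 and 230 CPM in the controls and 401 and 148 CPM in the cKO. Sf3b5, a small subunit, was not called (-0.40, adjusted p = 0.0558). Its cKO libraries were at 33.4, 30.9 and 46.5 CPM, the third inside the range of the controls (45.7 to 51.0 CPM), and without that library it was called lower (-0.61, adjusted p = 0.00181).

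Of the proteins bound to U2 RNA itself, Snrpb2 rose and Snrpa1, its partner on the same stem-loop, was not called. Snrpb2 was at 24.8, 27.7 and 23.3 CPM in the controls and 48.8, 51.4 and 56.7 CPM in the cKO, a log2 fold of 1.05 ± 0.12 (adjusted p = 0.000144). For Snrpa1 the fold was 0.037 (adjusted p = 0.829). Snrpb2 has a close relative in U1, Snrpa, and that gene fell: its levels were 101, 95.2 and 85.1 CPM against 55.9, 51.0 and 61.4 CPM, -0.74 ± 0.12 (adjusted p = 0.000551). Neither pair of groups overlapped.

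Among the U1 genes 3 of 6 were higher and 1, Snrpa, was lower, with a median of 0.37. Prpf39 encodes a U1-associated protein that helps it choose 5′ splice sites, a role best known from yeast. It rose from 52.2, 45.6 and 37.5 CPM to 96.8, 90.9 and 74.5 CPM (0.95 ± 0.14, adjusted p = 0.000458). Every cKO value of Prpf39 was above every control value. Snrnp70 (U1-70K), which grips the U1 RNA, had the highest level per kilobase of exon of the U1 genes in the controls (62.7 CPM) and was 0.52 higher (adjusted p = 0.0152), a call lost without the first cKO library (0.41, adjusted p = 0.0602). Snrpc, which steadies the pairing with the 5′ splice site, was not called (-0.081, adjusted p = 0.688), nor was Prpf40b (0.23, adjusted p = 0.118).

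**Figure D2:**
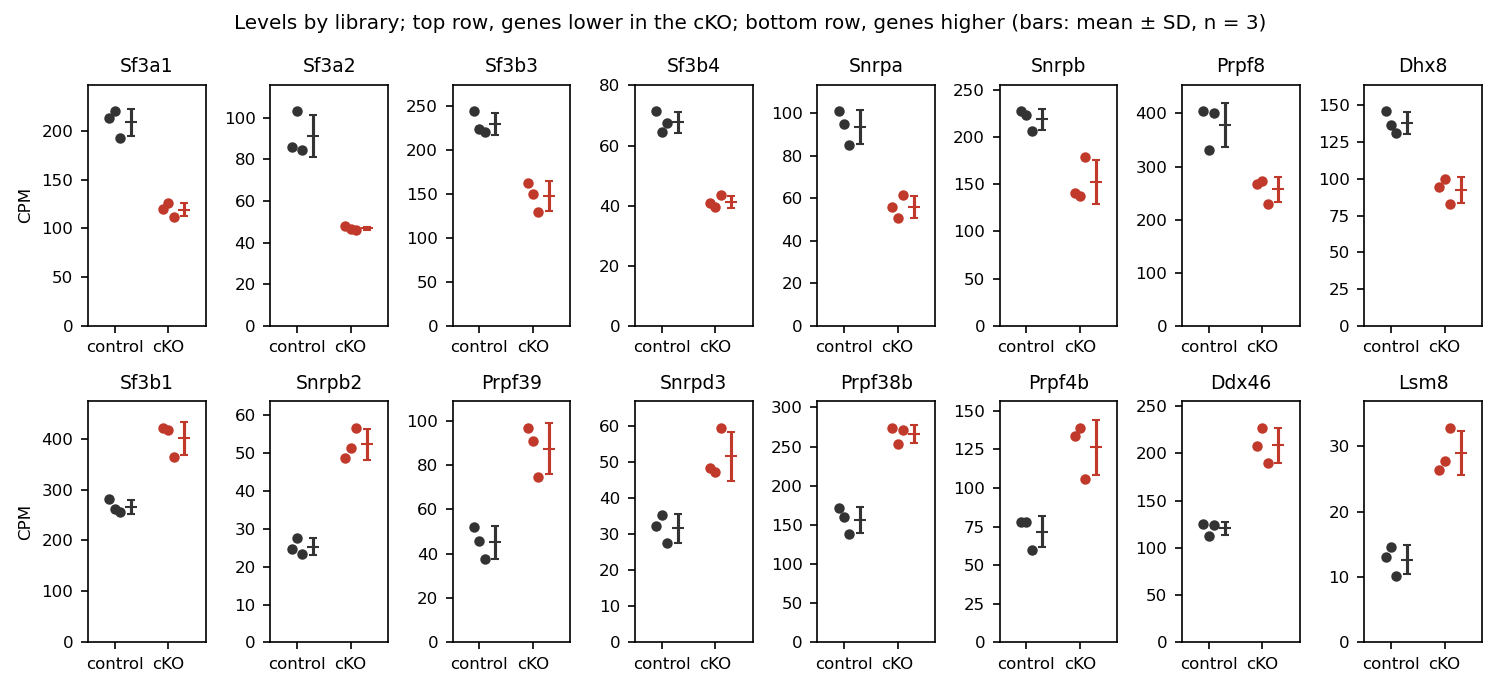
CPM of members in each sorted library, 3 controls and 3 cKO, each panel with its own linear axis starting at 0 and bars for the mean ± SD. The groups stand apart for the called genes, such as Snrpb2 (23.3 to 27.7 CPM against 48.8 to 56.7 CPM).

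The Sm ring sits on the U1, U2, U4 and U5 RNAs, and 3 of its 8 genes were higher and 1 lower. The exception in the called set was Snrpb (SmB), the most abundant member per kilobase of exon in the controls at 111 CPM, which fell from 227, 223 and 206 CPM to 141, 137 and 179 CPM (-0.52 ± 0.12, adjusted p = 0.00565). The cKO library nearest to the controls was the third, at 179 CPM, and it did not reach them. Snrpn, which encodes SmN, a protein nearly identical to SmB that is abundant in neurons, stayed low at 8.75, 5.56 and 9.03 CPM against 6.16, 6.19 and 7.30 CPM, with overlapping groups (-0.25 ± 0.24, adjusted p = 0.452). Snrpn shares its transcript with Snurf, and how reads of that pair were divided is not given in the sources used here. Snrpd3, the neighbour of SmB in the ring, rose from 32.1, 35.4 and 27.4 CPM to 48.2, 47.1 and 59.4 CPM (0.70 ± 0.14, adjusted p = 0.00219). Snrpe and Snrpd1, also ring subunits, were 0.55 (adjusted p = 0.0186) and 0.54 (adjusted p = 0.0135) higher. Both calls rest on the third libraries: without the third library of both groups Snrpe was at 0.33 (adjusted p = 0.0833) and Snrpd1 at 0.35 (adjusted p = 0.0514). Snrpe also missed the threshold without the first control (adjusted p = 0.0687). Snrpd2, Snrpf and Snrpg were not called. These short genes have processed copies elsewhere in the genome, and how reads matching several copies were counted is not given in the sources used here.

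Of 13 LSm genes, 3 were higher and 1 lower, or 30.8% called against 39.0% of all genes, and the median was 0.030. Lsm8 is the subunit that marks the nuclear ring on U6 RNA. Lsm8, on chromosome 6 from 18848579 to 18855751, was at 13.1, 14.6 and 10.2 CPM in the controls and 26.4, 27.8 and 32.8 CPM in the cKO (1.20 ± 0.17, adjusted p = 0.000322), the highest fold of any member. Lsm1, which takes the place of Lsm8 in the cytoplasmic decay ring, was not called (-0.16, adjusted p = 0.343). Lsm5, shared by both rings, rose from 4.69, 7.39 and 4.07 CPM to 9.81, 12.3 and 14.5 CPM (1.18 ± 0.26, adjusted p = 0.00398). The other ring genes, Lsm2, Lsm3, Lsm4, Lsm6 and Lsm7, were not called, with folds from -0.36 to 0.32. Outside the U6 ring, Lsm14a, a protein of cytoplasmic P bodies, was at 74.2, 81.2 and 58.5 CPM against 116, 110 and 103 CPM (0.62 ± 0.13, adjusted p = 0.00286). Lsm10, of the U7 particle, fell from 13.9, 13.5 and 14 CPM to 8.90, 8.07 and 9.08 CPM (-0.67 ± 0.17, adjusted p = 0.00834), while its U7 partner Lsm11 was not called (0.17, adjusted p = 0.497).

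The factors that read the 3′ splice site gave no call in 5 tested rows. Sf1, the branch point binding protein, was at 440, 440 and 427 CPM in the controls and 374, 346 and 375 CPM in the cKO; the groups did not overlap, and the test missed the threshold (-0.26 ± 0.098, adjusted p = 0.0575). Without the third cKO library it passed (-0.28, adjusted p = 0.0303). U2af2, the subunit that binds the polypyrimidine tract, was at 269, 279 and 241 CPM against 251, 218 and 247 CPM (-0.14 ± 0.11, adjusted p = 0.341). U2af1, which reads the AG at the intron end, was at 18.4, 21.7 and 19.0 CPM against 24.3, 21.5 and 30.4 CPM (0.37 ± 0.16, adjusted p = 0.0871). The U2AF values of both groups overlapped. U2af1l4, a paralog of U2af1, has 2 overlapping rows in the sorted table, each with a fold of 0.024, and how reads were divided between them is not given in the sources used here.

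In the tri-snRNP list 5 of 13 genes were higher and 3 lower, and the genes for the large U5 proteins were among the lower ones. Prpf8, the protein that cradles the catalytic RNA, fell by 0.56 on the log2 scale (adjusted p = 0.00330), Ddx23, the helicase that releases U1 from the 5′ splice site, by 0.44 (adjusted p = 0.00525) and Snrnp200, the helicase that unwinds U4 from U6, by 0.39 (adjusted p = 0.0154). The Snrnp200 call was lost without the first library of either group (adjusted p = 0.0530 without the cKO library and 0.0801 without the control) and with library size alone (0.137). Prpf38b, which resembles the tri-snRNP protein Prpf38a, rose from 171, 160 and 138 CPM to 274, 253 and 271 CPM (0.77 ± 0.11, adjusted p = 0.000366). Prpf38a itself was at 0.068 (adjusted p = 0.705). Prpf4b, a kinase that phosphorylates tri-snRNP proteins, was at 77.8, 77.8 and 59.9 CPM against 134, 139 and 106 CPM (0.81 ± 0.14, adjusted p = 0.000954), and the groups lay apart. Snrnp27 (0.60), Prpf3 (0.51), a U4/U6 protein, and Prpf18 (0.40), which acts in the second step, were also called higher. Prpf3 missed the threshold without the second control (adjusted p = 0.0747) or the third (0.0535). Not called were Prpf31 and Prpf4, proteins of U4/U6, Prpf6, the bridge between U4/U6 and U5, and Snrnp40 of U5.

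Of the remaining helicases and the ubiquitin ligase Prpf19, 2 were higher and 1 lower. Ddx46 (Prp5 in yeast), which opens U2 for the branch point, rose from 125, 113 and 124 CPM to 208, 227 and 190 CPM (0.79 ± 0.11, adjusted p = 0.000278). Dhx8 (Prp22 in yeast), which releases the spliced mRNA, fell from 146, 137 and 131 CPM to 94.2, 100 and 83.0 CPM (-0.58 ± 0.11, adjusted p = 0.00159). In neither gene did the groups overlap. Dhx15, which takes the spliceosome apart, was 0.46 higher (adjusted p = 0.00569). Dhx16 and Dhx38, which drive the steps before the first and the second cut, were not called (-0.19 and -0.17), nor was Prpf19 (-0.26, adjusted p = 0.0891). In the minor spliceosome, which handles a rare class of introns, Snrnp48 rose from 15, 16.2 and 9.85 CPM to 19.3, 23.7 and 25.5 CPM (0.74 ± 0.20, adjusted p = 0.0116). Snrnp25, another U11 protein, was at 19.6, 15.5 and 13.4 CPM against 12.3, 9.09 and 14.9 CPM and was not called (-0.42 ± 0.21, adjusted p = 0.144), and the third cKO library lay within the controls. Without that library it was called lower (-0.60, adjusted p = 0.0416).

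Leaving out the third cKO library changed the count of lower members from 12 to 17 and that of higher members from 20 to 19, and leaving out the third library of both groups gave 18 and 18. The genes that gained a lower call there were Lsm4, Prpf19, Sf1, Sf3b5, Snrnp25 and U2af2. With library size alone in place of TMM scaling, which moved the median over all genes up by 0.17 (log2), 25 members were higher and 10 lower, and the share of higher among called genes went from 45.1% to 65.1% over all genes and from 62.5% to 71.4% in the members. No called member changed direction under any of these settings. Of the calls, 16 of 20 higher and 10 of 12 lower held under every other tool, scaling, filter and left-out library run, and 18 and 9 had a log2 fold of at least 0.5.

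Other genes of the splicing pathway, 70 in the sorted table in lists outside the symbols above, gave 28 higher and 14 lower of 68 tested, with a median of 0.17. That is 41.2% higher and 20.6% lower, against 17.6% and 21.4% of all genes tested. The SR proteins, which bind exons and recruit U1 and U2AF, moved in 1 direction where called: 8 of 10 were higher and 0 lower, with a median of 0.55, including Srsf10 (0.94) and Srsf7 (0.71). In the Prp19-related list 8 of 17 were higher and 3 lower, with Cwc22 at 0.52 and Xab2 at -0.62. U2 and tri-snRNP partners gave 2 higher and 4 lower of 12, with the U2AF-like Puf60 at -0.67 and the U5 GTPase Eftud2 at -0.63. The exon junction complex, which marks joined exons, gave 3 higher and 1 lower of 5, with Magohb at 1.44 and Eif4a3 at -0.63. Second-step and disassembly factors gave 2 and 2 of 5 (Cdc40 0.57, Tfip11 -0.65), U11/U12 partners 3 and 1 of 5 (Zcrb1 0.70, Pdcd7 -0.43) and snRNP assembly 2 and 3 of 14 (Prmt5 -0.64, Gemin5 -0.61). The share called in the snRNP assembly list, 35.7%, was near the 39.0% of all genes. All genes named in this paragraph passed the test.

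The PTBP1 immunoprecipitate was compared with the input to ask which of these mRNAs it held in excess or in deficit. Most were in deficit: of 63 tested members 46 were lower than in the input, 14 were higher and 3 were not called. Over all 12854 genes tested 87.8% were called, 43.0% higher and 44.8% lower, so that a call alone says little in this comparison. The members' shares were 95.2% called, 22.2% higher and 73.0% lower. Their median log2 fold was -1.30, against -0.026 over all genes, and the folds ran from -5.79 to 1.35. The input and immunoprecipitate values did not overlap for 95.2% of members and 87.9% of all genes. At least 2-fold lower were 37 members and at least 2-fold higher 2, against 27.0% and 20.7% of all genes. With no control antibody, RNA bound to PTBP1 and RNA held by the beads cannot be told apart. Ptbp1 mRNA itself was at 459, 433 and 449 CPM in the inputs and 965, 1011 and 934 CPM in the immunoprecipitates.

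**Figure D3:**
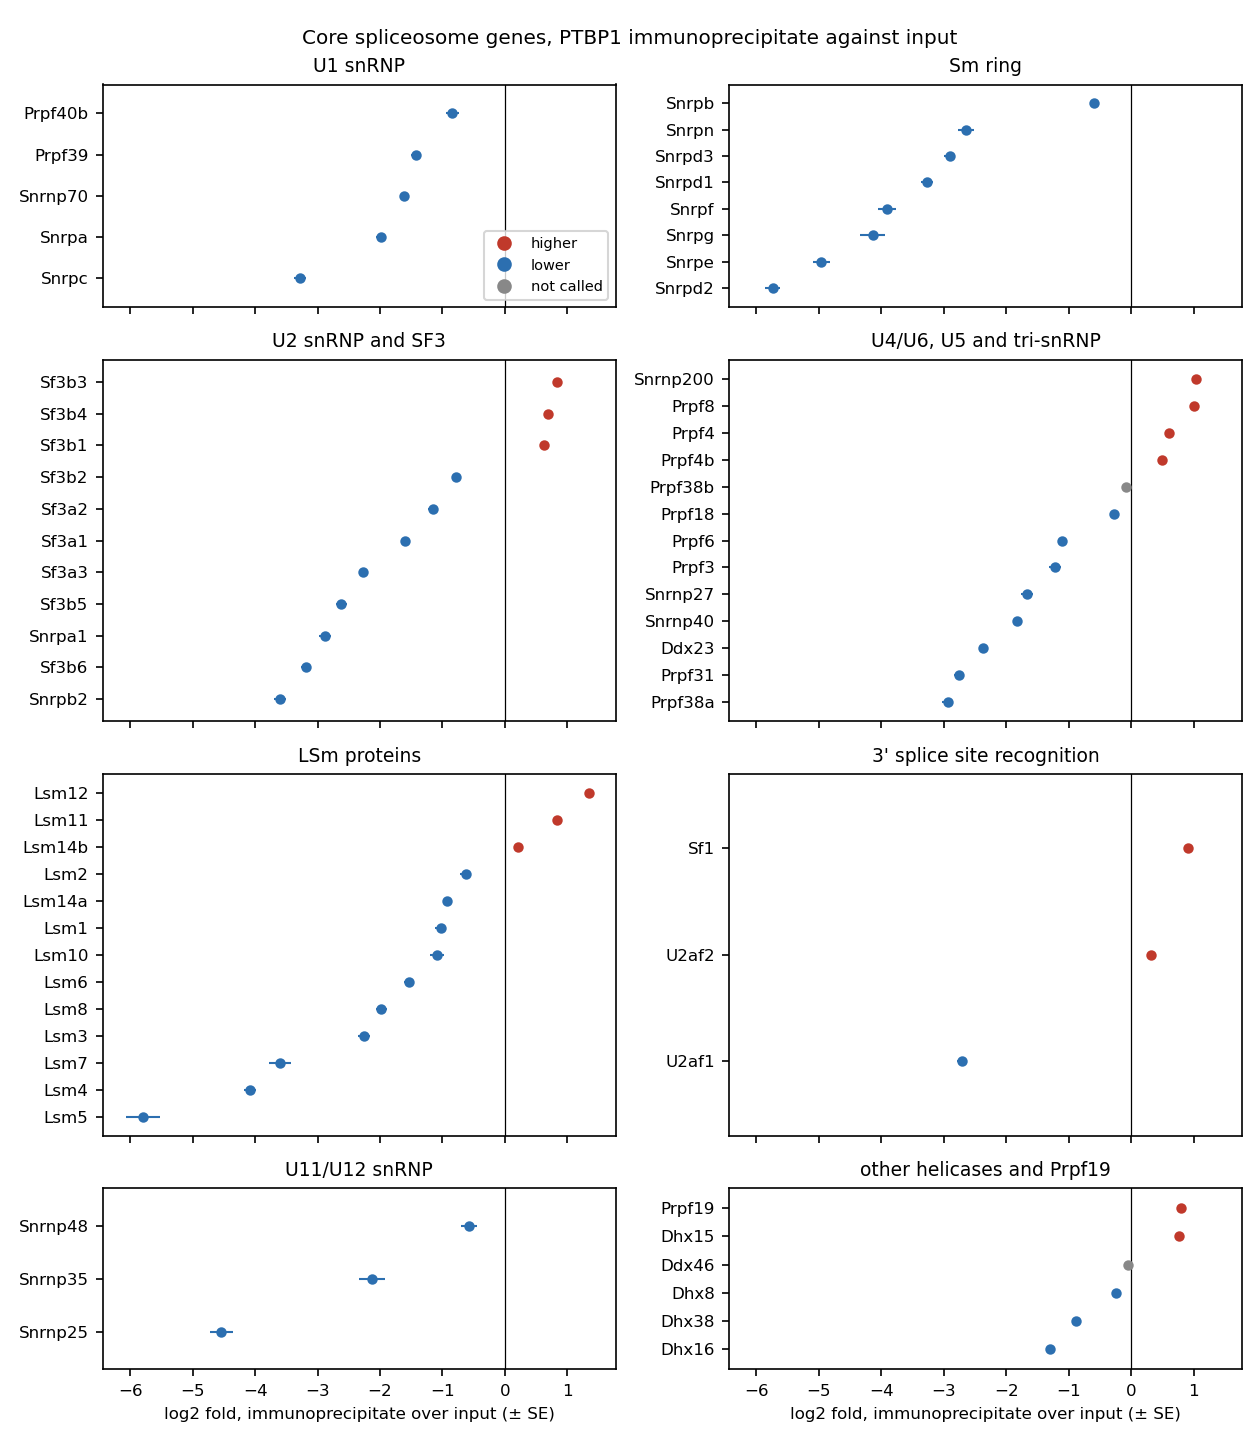
Log2 fold of the tested members (1 not shown), immunoprecipitate over input, by particle, with bars for the standard error, red for higher, blue for lower and grey for not called. All 8 Sm ring genes lie below 0, while Lsm12 reaches 1.35 and Lsm5 -5.79.

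Genes for the Sm ring were the most depleted particle by median, -3.59, and all 8 were lower. Their summed level was 353, 349 and 329 CPM in the inputs and 105, 108 and 117 CPM in the immunoprecipitates. Snrpd2 went from 53.8, 50.2 and 45.9 CPM to 0.749, 1.08 and 0.970 CPM, 53.4-fold lower (-5.74 ± 0.12, adjusted p = 9.44e-19). Snrpe went from 41.2, 46.4 and 37.6 CPM to 1.66, 1.12 and 1.22 CPM (-4.96 ± 0.13, adjusted p = 1.84e-17), and Snrpg from 7.01, 7.99 and 7.61 CPM to 0.315, 0.373 and 0.590 CPM (-4.14 ± 0.20, adjusted p = 2.11e-13). Each of these small ring subunits was under 2 CPM in every immunoprecipitate. Snrpb lost less of its level: at 148, 147 and 138 CPM in the inputs it kept 90.6, 94.5 and 102 CPM, 1.51-fold lower (-0.60 ± 0.051, adjusted p = 1.88e-09). Snrpn, its relative, was at 10.2, 11.2 and 12.3 CPM against 1.81, 1.74 and 1.86 CPM (-2.64 ± 0.13, adjusted p = 3.03e-13).

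LSm genes spanned both ends, with 3 of 13 higher and 10 lower. Lsm5 was the lowest of all members: its raw counts were 117, 152 and 118 in the inputs and 5, 1 and 4 in the immunoprecipitates, a ratio of 57.9 with a 95% counting interval of 31.2 to 122, which covers counting error only. Lsm4, also of the U6 ring, was at 56.3, 63.9 and 56.5 CPM against 3.47, 3.10 and 3.88 CPM, 16.9-fold lower (-4.08 ± 0.091, adjusted p = 2.58e-18). The 3 higher genes are not of the U6 ring. Lsm12, an RNA-binding partner of ataxin-2 on chromosome 11 from 102162497 to 102185296, was at 106, 101 and 98.5 CPM in the inputs and 271, 263 and 246 CPM in the immunoprecipitates, 2.56-fold higher (1.35 ± 0.049, adjusted p = 2.81e-15). Lsm11, of U7, was at 29.1, 28.5 and 26.7 CPM against 53.7, 46.2 and 51.0 CPM (0.84 ± 0.068, adjusted p = 6.20e-10). Lsm14b was 0.21 higher with TMM scaling and lower with library size alone (-0.16, adjusted p = 0.00766), so its direction rests on the scaling.

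The genes for the largest U5 proteins were in excess. Snrnp200, on chromosome 2 from 127208386 to 127240451, was at 158, 164 and 147 CPM in the inputs and 317, 328 and 321 CPM in the immunoprecipitates, 2.06-fold higher (1.04 ± 0.047, adjusted p = 6.22e-14). Prpf8, on chromosome 11 from 75486816 to 75509449, was at 244, 249 and 255 CPM against 480, 508 and 506 CPM, 2.0-fold higher (1.0 ± 0.042, adjusted p = 2.82e-14). For both, all 3 immunoprecipitates stood near 2 times the inputs. Of the U4/U6·U5 list 4 genes were higher and 8 lower, the other higher ones being Prpf4 (0.60) and Prpf4b (0.49, not called with library size alone). Ddx23 was at 91.6, 91.0 and 90.4 CPM against 18.6, 17.8 and 15.9 CPM, 5.21-fold lower (-2.38 ± 0.063, adjusted p = 2.60e-17). Prpf31 was at 41.8, 36.7 and 36.9 CPM against 5.99, 5.67 and 5.27 CPM, 6.80-fold lower (-2.76 ± 0.086, adjusted p = 2.67e-16). Prpf38a was 7.69-fold lower, while its relative Prpf38b was not called (-0.087, adjusted p = 0.196).

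SF3b again held genes on both sides. Sf3b3 (0.83), Sf3b4 (0.69) and Sf3b1 (0.63) were higher in the immunoprecipitate, and the other 8 genes of the U2 and SF3 list were lower. Sf3b6 was at 43.3, 41.1 and 42.7 CPM in the inputs and 4.45, 4.55 and 5.02 CPM in the immunoprecipitates, 9.05-fold lower (-3.18 ± 0.081, adjusted p = 1.39e-17). Snrpb2 was at 35.0, 36.7 and 34.9 CPM against 2.84, 3.27 and 2.66 CPM, 12.2-fold lower (-3.60 ± 0.093, adjusted p = 1.92e-17). No input overlapped an immunoprecipitate in these 2 genes. All 3 SF3a genes were lower, Sf3a1 at -1.60, Sf3a2 at -1.15 and Sf3a3 at -2.27.

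U1 genes were lower in 5 of 6 cases. Snrpc was at 23.2, 22.7 and 24.6 CPM against 2.56, 2.15 and 2.53 CPM, 9.71-fold lower (-3.28 ± 0.10, adjusted p = 3.46e-16), and Snrpa at 41.4, 37.9 and 39.4 CPM against 9.38, 10 and 10.4 CPM, 3.98-fold lower (-1.99 ± 0.074, adjusted p = 3.31e-15). All 3 genes of U11/U12 were lower. Snrnp25 went from 11.3, 10 and 12.5 CPM to 0.591, 0.373 and 0.464 CPM (-4.54 ± 0.18, adjusted p = 1.12e-14), and Snrnp35 from 3.40, 4.55 and 3.86 CPM to 1.18, 0.828 and 0.675 CPM (-2.13 ± 0.21, adjusted p = 1.76e-08).

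At the 3′ splice site the subunits of U2AF lay on opposite sides. U2af1 was at 39.0, 36.8 and 34.8 CPM in the inputs and 5.60, 5.75 and 5.48 CPM in the immunoprecipitates, 6.56-fold lower (-2.71 ± 0.082, adjusted p = 1.61e-16). U2af2 was at 154, 164 and 143 CPM against 191, 190 and 190 CPM, 1.24-fold higher (0.31 ± 0.049, adjusted p = 7.80e-06), but with library size alone its fold was -0.05 (adjusted p = 0.311). Sf1 was at 154, 153 and 152 CPM against 294, 298 and 267 CPM, 1.87-fold higher (0.90 ± 0.048, adjusted p = 8.56e-13). The deficit of U2af1 and the excess of Sf1 kept their sign under every setting run. U2af1l4 was listed at 0 in 4 of the 6 cultured libraries and was not tested. Among the remaining helicases and Prpf19, 2 genes were higher and 3 lower. Prpf19 was at 181, 181 and 169 CPM against 301, 310 and 315 CPM (0.80 ± 0.044, adjusted p = 1.60e-12), and Dhx15 was 0.76 higher. Dhx16 was at 37.3, 37.1 and 36.4 CPM against 14.5, 16.1 and 14.4 CPM (-1.30 ± 0.069, adjusted p = 8.65e-13), and Ddx46 was not called (-0.057, adjusted p = 0.325).

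The fold in the immunoprecipitate moved with exon length and with the level of the mRNA. Exon length is the value the sorted table lists for each gene. How it compares with the length of the mRNAs in these cells is not given in the sources used here. A gene can therefore stand in a longer class than its mRNA would. Over all 12511 genes with a length in the sorted table, Spearman's rho between exon length and log2 fold was 0.43, and over the 63 members it was 0.62. Between log2 fold and the mean level over all 6 cultured libraries, which itself includes the immunoprecipitates, it was 0.29 over all genes and 0.74 over the members. These are descriptions across genes, which are not independent replicates and share their libraries. The median exon length was 3841 bases in the tested members and 3930 bases in all genes tested in the sorted cells, and it was 1495 bases in the Sm ring. Among genes under 1 kb the median log2 fold was -3.46 over all genes and -3.43 over the 6 members. From 1 to 2 kb it was -1.39 over all genes and -2.72 over 12 members, 10 of them below the median of that class. From 2 to 3 kb it was -0.58 over all genes and -1.15 over 7 members, 4 of them below the median. In the class from 3 to 4 kb it was -0.10 over all genes and -1.11 over 9 members, all of them below the median of that class. From 4 to 6 kb it was 0.18 over all genes and -0.89 over 19 members, with 14 below the median of the class and 11 below its lower quartile. From 6 kb up it was 0.54 over all genes and 0.72 over 10 members. The part of length and level in the folds of single members was not tested.

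**Figure D4:**
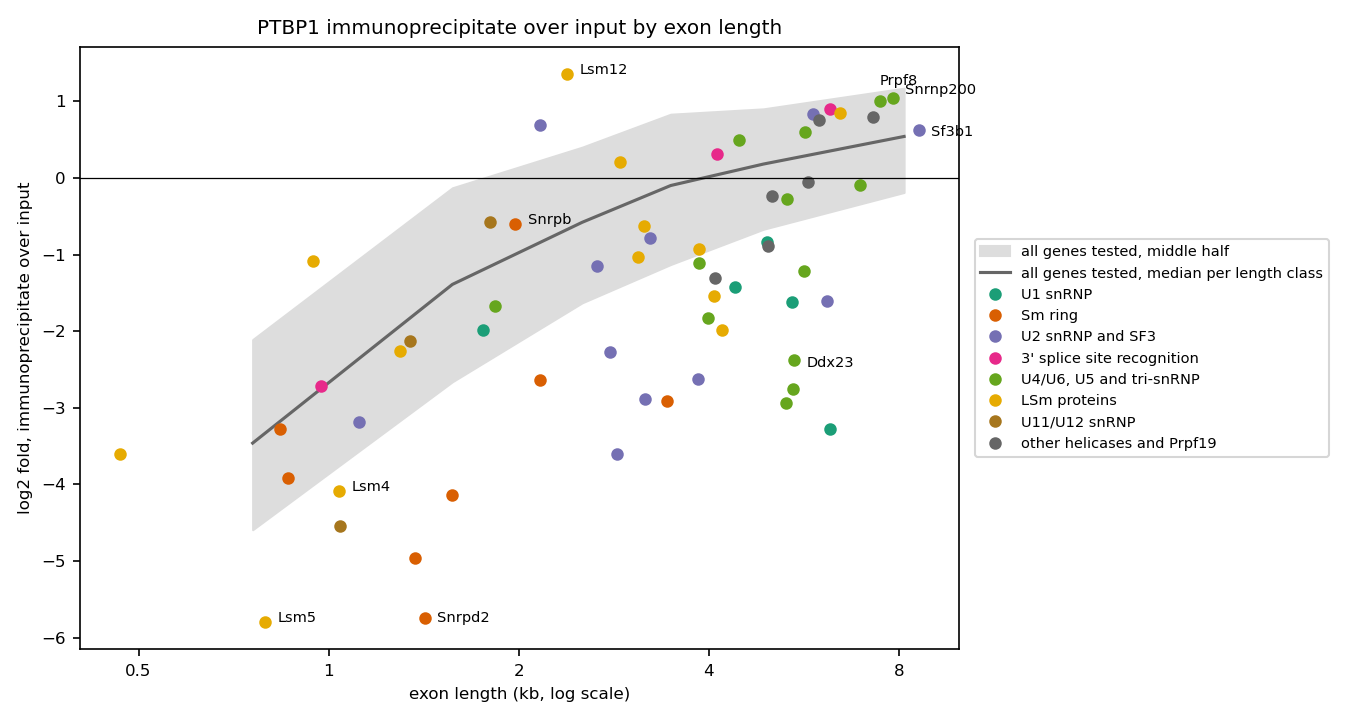
Log2 fold, immunoprecipitate over input, of the tested members (1 not shown) against its exon length in kb (log axis), coloured by particle, with the median and middle 50% of all genes tested per length class. Members under 1 kb have a median of -3.43 and those of 6 kb and more a median of 0.72.

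Other splicing genes were also mostly lower: of 70 tested outside the symbols above, 8 were higher and 60 lower, with a median of -1.10. That is 11.4% higher and 85.7% lower, against 43.0% and 44.8% of all genes tested. The SR proteins, of which 8 of 10 rose in the cKO, gave 0 higher and 9 lower.

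The members were then set side by side in both comparisons, which come from separate libraries, tables and RNA preparations. Of the 20 members higher in the cKO, 3 were in excess in the immunoprecipitate (Sf3b1, Dhx15 and Prpf4b), 14 in deficit and 3 not called. That is 15% in excess and 70.0% in deficit, against 34.5% and 54.7% of all genes that were higher in the cKO and tested in both. Of the 12 lower members, 4 were in excess (Prpf8, Snrnp200, Sf3b3 and Sf3b4), or 33.3% against 47.8% of all lower genes, and 8 in deficit, or 66.7% against 43.7%. Of the 31 members without a call in the cKO, 7 were in excess, or 22.6% against 43.1% of all such genes, and 24 in deficit, or 77.4% against 44.7%. A smaller share in excess than over all genes was thus seen in all 3 classes of members. Snrpb2 and Lsm8, which rose in the cKO, were 12.2-fold and 3.94-fold lower in the immunoprecipitate than in the input. Prpf8 fell to 0.680 of its control level in the cKO and was 2.0-fold higher in the immunoprecipitate. Across the 63 members tested in both, Spearman's rho between the log2 folds was -0.15, and over all 11142 genes tested in both it was -0.07.

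**Figure D5:**
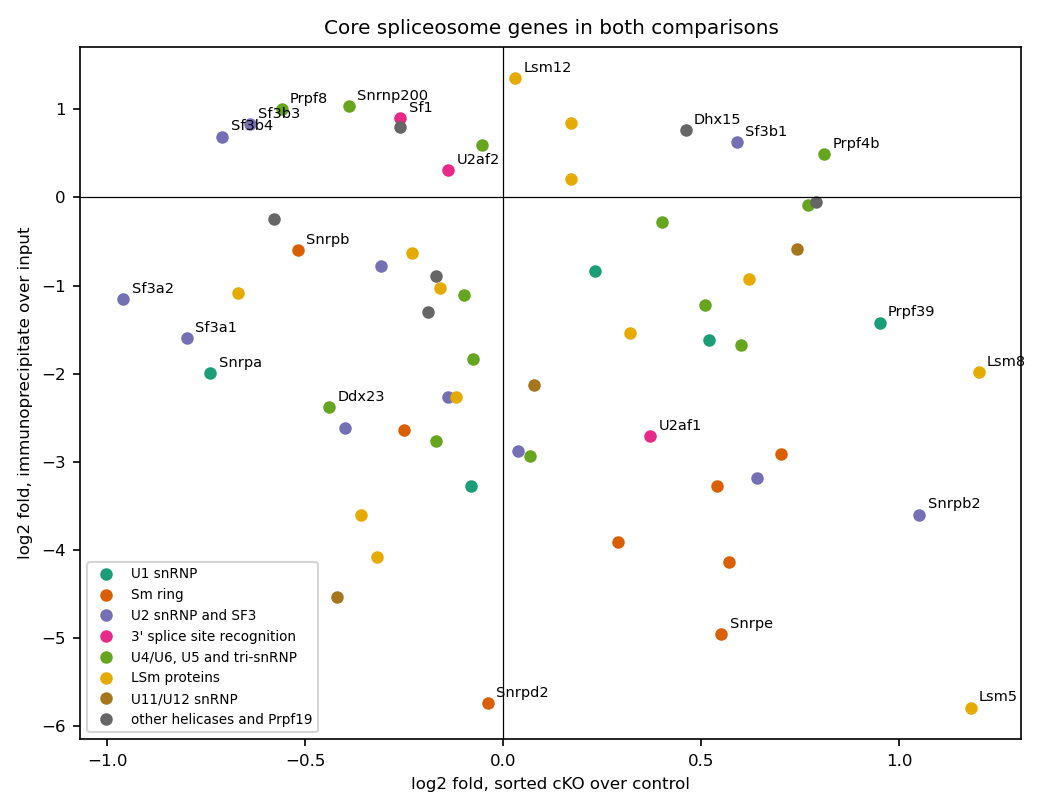
Log2 fold in the cKO (x axis) against log2 fold in the immunoprecipitate (y axis) of the members tested in both (1 not shown), coloured by particle. Most members lie below 0 on the y axis on both sides of the x axis, and Prpf8, Snrnp200, Sf3b3 and Sf3b4 lie at the upper left.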

How the data were processed

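The authors deposited raw counts, whole numbers of reads per gene, in 1 table of the 6 sorted libraries (poly(A) RNA from 100 ng of total RNA, NEBNext Ultra Directional, per the labels' protocols) and 1 of the 6 cultured libraries (total RNA, NEBNext Ultra II Directional). The build was mm10, and STAR, Bowtie2 2.3.5.1, HTSeq, DESeq2, cutadapt and bcl2fastq 2.20 are listed without a role, per the submitters' processing notes; strand handling and multiply matching reads are not given in the sources used here. The sorted table also gives exon length and gene positions, whose starts, counted from 0 there, are given from 1. Its columns name the group but no replicate, so libraries are numbered by table order. The 84 other per-library columns were not used; some intron and unique-read columns were looked at during inspection and set aside.

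Separate fits were made to the 6 sorted and the 6 cultured libraries with edgeR 4.0.16 in R 4.3.3 (filterByExpr, TMM scaling, robust quasi-likelihood test, two-sided, Benjamini-Hochberg adjustment over all genes tested, threshold 0.05), and the procedure was tested on simulated data. The standard error is the log2 fold divided by the square root of F, taken as positive. CPM divide counts by the TMM-scaled library size. No 2 libraries of a group agreed within sampling noise (smallest chi-square per degree of freedom 2.13). Alternatives were DESeq2 1.42.0, its size factors in edgeR, library size alone, no filter on low counts, removal of mitochondrially encoded genes before scaling, a minimum fold, each library left out, the third library of both sorted groups left out, and, for the cultured libraries, a replicate block. Values in every library are given for the 2 members with the smallest p of each particle list, the 5 largest folds in each direction, and Snrpb, Snrpn, U2af1 and U2af2, for each comparison; 1 member that this rule includes is counted throughout and not reported here on its own; other genes of the pathway are named by the 2 smallest p per list. The members and lists were chosen with earlier results of these data known.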

Additional observations from a re-analysis of the deposited data

How the results depend on the processing

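DESeq2 and DESeq2 size factors gave the same member counts as edgeR with TMM scaling in both comparisons (20 higher and 12 lower in the cKO, 14 and 46 in the immunoprecipitate). Leaving out each sorted library in turn gave 18 to 20 higher and 10 to 17 lower members, and each cultured library 14 and 46. Among the member values recomputed for the cKO, 730 gave the same call or again none, 19 lost a call and 19 gained one; members without a call could change sign among the 730. With library size alone 1863 genes were lower in the cKO instead of 2870, 3476 were higher instead of 2359, and in the immunoprecipitate, where that setting moved the median of all genes by -0.36, the members gave 11 higher and 50 lower and the direction changed for Lsm14b (-0.16) and U2af2 (-0.05). Counting only log2 folds of at least 1 left 2 members higher in the immunoprecipitate and, over all genes, 2664 higher and 3471 lower; fewer genes pass by construction. The replicate block on the cultured libraries gave 14 higher and 46 lower members and 5628 and 5834 of all genes; same-numbered libraries deviated together with correlations of 0.116, 0.0403 and 0.175, each the highest of its input, although the second immunoprecipitate correlated best with the first input (0.0608), and the library names hold 2 numbers whose meaning the labels do not give, so that 3 libraries may hold 2 cultures. No paired analysis was possible for the sorted libraries because their columns carry no replicate numbers. Low counts limit Lsm5 in the immunoprecipitate (1 to 5 reads per library).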
